A study of Saccharomyces cerevisiae with 18 samples.

Results

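The Snf1 kinase complex, the kinases upstream of it and the Reg1 subunit of its phosphatase were followed at the transcript level in budding yeast after glucose was given back to glucose-depleted cells. The group holds 9 genes, picked by name: SNF1, SNF4, GAL83, SIP1, SIP2, SAK1, TOS3, ELM1 and REG1. All 9 were among the 5273 named genes tested, each with 1 probe printed as 2 spots per array. The cells were wild-type Saccharomyces cerevisiae, called matA in the sample titles and BY4742 in the strain label. They were grown overnight, kept for a day until the glucose was used up, and diluted into fresh synthetic complete medium with glucose. Glucose therefore cannot be told apart from the rest of the fresh medium or from the dilution. RNA of 2 cultures (a and b) was taken right after inoculation (0 min), then at 3, 7.5 and 15 min, at 30 and 60 min, and at 110, 150 and 300 min. Each of the 18 samples was hybridised on a two-colour array of long oligonucleotide probes, and the other channel of every array held the same pool of RNA from a set of wild-type cultures. A value is a log2 ratio of sample to pool after print-tip loess, which centres each array, so that a level is read only against the same gene at another time. The number of arrays limits the precision, and in RNA of whole cultures fewer cells of a kind and less RNA per cell cannot be told apart.

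Snf1 is the yeast member of the AMP-activated protein kinase family, and cells need it to grow on carbon sources other than glucose. The catalytic kinase works in a trimer with the activating gamma subunit Snf4 and with 1 of the beta subunits Gal83, Sip1 and Sip2, which place the complex in the cell and bridge it to targets. The kinases Sak1, Tos3 and Elm1 switch Snf1 on by phosphorylating its activation loop when glucose is scarce. Reg1 directs the phosphatase Glc7 to Snf1 and switches it off when glucose is plentiful. All these steps act on proteins, and the arrays measured transcripts only.

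The direction of 1 array decides several comparisons. From 3 min on, the labels put the sample of culture a in Cy3 and that of culture b in Cy5, but at 0 min Cy5 is given for the samples of both. Taken so, the 0 min arrays correlated across genes at r = -0.92, against 0.61 to 0.97 for the pair of cultures from 3 min on. Genes set by the genotype went against the label of the array of culture a at 0 min. The 4 alpha-cell genes (MF(ALPHA)1, MF(ALPHA)2, STE3 and SAG1) averaged 4.63 there as labelled, against -4.05 in culture b at 0 min and a range of -5.06 to -4.24 from 3 min on. The a-cell genes MFA1, MFA2, STE2 and BAR1 averaged -2.78 there as labelled, against 2.99 in culture b at 0 min and a range of 3.61 to 4.67 from 3 min on. The low alpha-cell genes go with the sample titles, which call the cells matA, and against the strain label BY4742, the name of an alpha strain. LYS2 and MET17, genes that differ between related laboratory strains, also opposed the label of the array of culture a at 0 min. As labelled they were at -3.31 and 5.60 there, against 3.29 and -5.00 in culture b at 0 min. The label of this array and its values thus disagree. Values are given with its ratios turned, with the array left out and as labelled. As labelled, the 0 min mean joins 2 arrays that opposed each other across genes. With the array turned, culture and dye cannot be told apart.

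**Figure D1:**
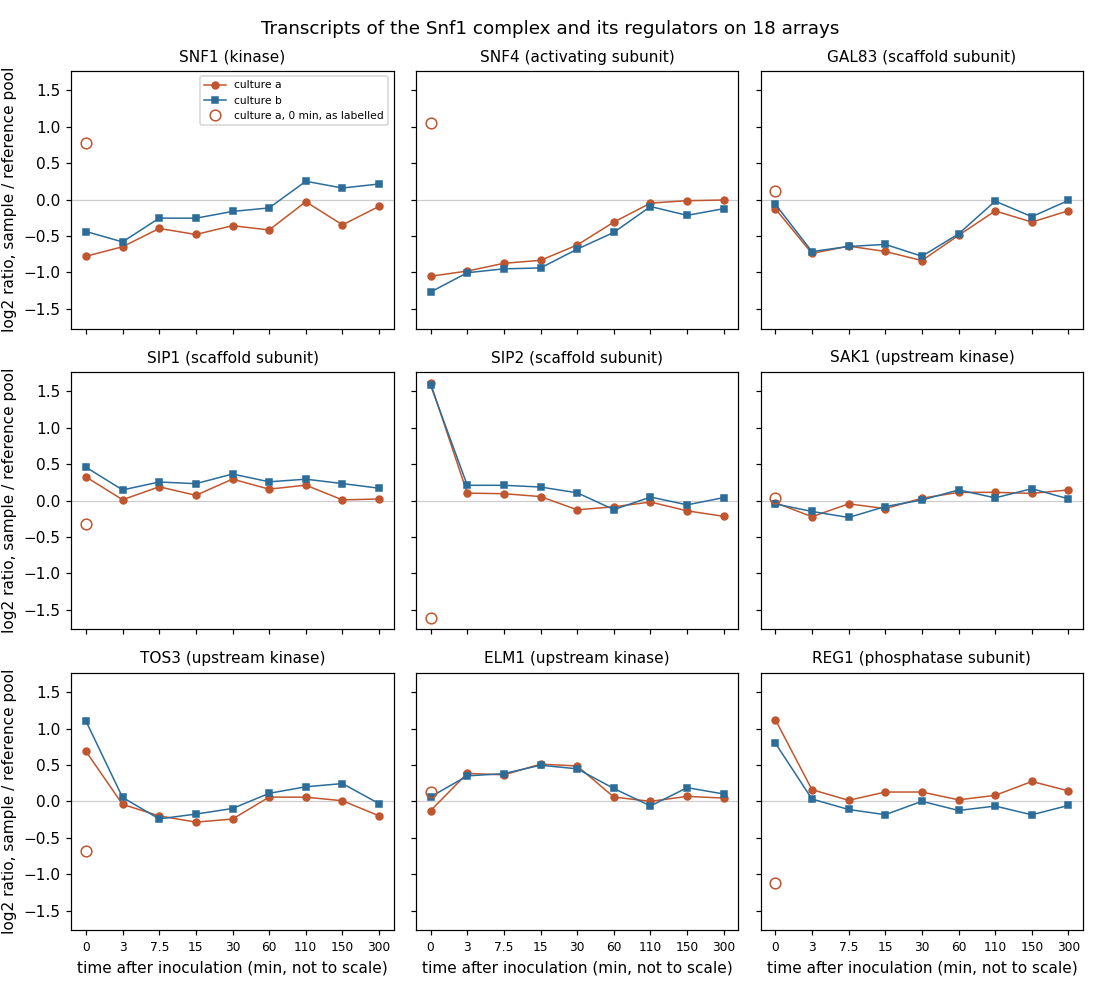
Log2 ratio of sample to reference pool for the 9 genes at each of the 9 times (minutes after inoculation, evenly spaced). Filled points are cultures a and b, culture a turned at 0 min, and the open circle is the same array as labelled. SIP2, TOS3 and REG1 start above every later point, SNF4 climbs, and between 3 and 30 min GAL83 lies low and ELM1 high.

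Transfer to fresh medium with glucose was followed by changes at different times in different genes of the group. With loess and the array turned, SIP2, TOS3 and REG1 were lower by 3 min and stayed low, and SNF4 was higher only late. GAL83 was lower and ELM1 higher up to 30 min by less than the fold limit. With the arrays shifted to external control probes, the falls of TOS3 and REG1 were not called. That of GAL83 then did not pass the adjusted p limit, and SNF4 was called higher already at 30 min. A call needed an adjusted p under 0.01 in limma (Benjamini-Hochberg, over all genes tested) and a fold change over 1.7 (0.77 on the log2 scale). With loess and the array turned, 0 of the 9 genes rose and 3 fell at 3 min against 0 min, beside 12.2% and 13.4% of all genes. At 30 min 0 rose and 3 fell, beside 17.4% and 19.6%, and at 300 min 1 rose and 3 fell, beside 19.3% and 19.2%. The median log2 fold change of the 9 genes was -0.31, -0.06 and 0.01 at 3, 30 and 300 min, against -0.01, -0.01 and 0.03 over all genes. By the adjusted p alone 5, 6 and 5 of the 9 passed, beside 50.3%, 60.9% and 62.8% of all genes. With culture as a replicate block SIP1 at 3 and 300 min and SNF1 at 30 min passed it too, which made 6, 7 and 6 of the 9, beside 66.3%, 74% and 75.8%. Left out, the array of culture a at 0 min gave calls of 0 higher and 2 lower at 3 min (23.5% of all genes called), 0 and 2 at 30 min (34.9%), and 1 and 2 at 300 min (36.5%). As labelled, 0 of the 9 genes were called at 3 min (3 at an unadjusted p under 0.05 in limma), GAL83 was at 30 min, and 0 were at 300 min (0 at an unadjusted p under 0.05). All genes then gave 4.38%, 3.7% and 0% of calls. No share of all genes was counted at the unadjusted p, here or below, so such counts describe only the genes named.

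The moderated F test of limma asked whether a gene varied over all times, without choosing one. It passed for 7 of the 9 genes over the 9 times, beside 76.7% of all genes. SNF1 (adjusted p = 0.0266) and SIP1 (0.0912) did not pass. From 3 min on, without either 0 min array, it passed for SNF4, GAL83, SAK1 and ELM1, 4 of the 9, beside 64.8% of all genes. With culture as a replicate block all 9 passed over the 9 times, beside 91.3% of all genes, and from 3 min on 8 of 9 passed, all but REG1 (adjusted p = 0.508), beside 84.5%.

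SNF1, the kinase itself, passed both limits in no comparison, and its cultures lay apart. From 0 to 300 min its log2 ratios were -0.78, -0.65, -0.40, -0.48, -0.36, -0.42, -0.03, -0.35 and -0.09 in culture a. In culture b they were -0.44, -0.58, -0.25, -0.25, -0.16, -0.11, 0.25, 0.16 and 0.22. The values at 300 min lay above those at 0 min in both cultures. Set against 0 min, the log2 fold change at 300 min was 0.67 (SE 0.19, adjusted p = 0.00705), a 1.59-fold difference under the fold limit. It was 0.50 (adjusted p = 0.0661) with the 0 min array of culture a left out and -0.11 as labelled. Without the array of culture a at 300 min it came to 0.82, and without that of culture b at 0 min to 0.84, both past the limit. With the arrays shifted to external control probes, SNF1 was called higher against 0 min. It was at 0.93 at 30 min (adjusted p = 0.000237) and 1.46 at 300 min (adjusted p = 2.77e-06). With loess the 3 min value against 0 min was -0.0058, with opposite signs in the cultures. It was higher in culture b than in culture a at 8 of 8 later times, by 0.25 on average (SD 0.13).

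SNF4, the gamma subunit that activates the kinase, rose in a slow climb up to 110 min. Its log2 ratios in culture a were -1.05, -0.98, -0.87, -0.83, -0.62, -0.31, -0.05, -0.01 and -0.0048 from 0 to 300 min. In culture b they were -1.27, -1.003, -0.95, -0.94, -0.68, -0.45, -0.09, -0.22 and -0.12. Both cultures were lowest at 0 min and near the pool from 110 min on. Of the change between 0 and 300 min, 15.3% had been covered by 3 min, 46.4% by 30 min, 71.3% by 60 min and 99.4% by 110 min. Against 0 min its log2 fold change was 0.17 (SE 0.09) at 3 min, 0.51 at 30 min (adjusted p = 0.000387, under the fold limit) and 1.10 at 300 min (adjusted p = 5.53e-07), the last a 2.14-fold rise. With the array left out it was 1.20 at 300 min (adjusted p = 1.35e-06), and as labelled 0.04, not called.

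The climb of SNF4 does not need the 0 min arrays. At 300 min against 3 min it was 0.93 (SE 0.09, adjusted p = 3.64e-06), or 1.90-fold, and it was past both limits with both 0 min arrays left out (adjusted p = 2.42e-06). It was the only 1 of the 9 genes called in this comparison, in which 27.3% of all genes were called. In the order of its time means, 300, 110 and 150 min overlapped, and 60, 30 and 15 min followed, each below the range of the time before it.

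GAL83, the beta subunit that takes Snf1 into the nucleus in low glucose, was lower at 3 and 30 min, by less than the fold limit, and near its start at 300 min. From 0 to 300 min it had log2 ratios of -0.12, -0.74, -0.64, -0.71, -0.84, -0.49, -0.16, -0.31 and -0.15 in culture a. In culture b they were -0.06, -0.71, -0.64, -0.61, -0.78, -0.47, -0.02, -0.23 and -0.01. Both cultures were at their lowest at 30 min, and at 300 min close to their start. Against 0 min the log2 fold change was -0.63 (SE 0.07, adjusted p = 1.03e-05) at 3 min, -0.71 (adjusted p = 2.20e-06) at 30 min and 0.01 (adjusted p = 0.883) at 300 min. The first 2 differences, 1.55-fold and 1.64-fold, were larger than the spread between arrays and smaller than the fold limit. As labelled the 30 min value was -0.84 (adjusted p = 0.00101), past the limit. With the arrays shifted to external control probes, GAL83 was at -0.21 (adjusted p = 0.179) at 3 min, -0.13 (adjusted p = 0.389) at 30 min and 0.81 (adjusted p = 7.29e-05) at 300 min.

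The return of GAL83 was measured without a 0 min array. At 300 min against 30 min it was 0.73 (SE 0.07, adjusted p = 6.76e-06), 1.65-fold, and 0.80 without the array of culture a at 300 min, which is past the fold limit. The values at 300, 110 and 0 min overlapped at the top of its order, and 30 min lay below all others.

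SIP2, the beta subunit held at the plasma membrane and in the cytoplasm, fell the furthest of the 9 genes at 3, 30 and 300 min, with the array turned. Culture a gave log2 ratios of 1.61, 0.10, 0.09, 0.05, -0.13, -0.09, -0.02, -0.14 and -0.22 from 0 to 300 min. Culture b gave 1.58, 0.21, 0.21, 0.19, 0.11, -0.12, 0.05, -0.06 and 0.04. At 0 min both cultures were far above the 16 later arrays, whose highest value was 0.21. Compared with 0 min, SIP2 had a log2 fold change of -1.44 (SE 0.10, adjusted p = 2.47e-07) at 3 min, -1.61 (adjusted p = 4.73e-08) at 30 min and -1.68 (adjusted p = 2.55e-08) at 300 min, or 2.71-fold, 3.04-fold and 3.21-fold lower. By 3 min, 85.5% of the whole change had been reached.

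The fall of SIP2 depended on the direction of the array and not on its presence. Left out, it gave -1.43, -1.59 and -1.67 at 3, 30 and 300 min, all called. As labelled, the 0 min arrays of SIP2 averaged to -0.01 and the log2 fold changes were 0.17, 0.0021 and -0.08, none of them called. SIP2 at 300 min against 3 min was at -0.24 (SE 0.10, adjusted p = 0.0496, or 0.00836 with culture as a block).

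SIP1, the beta subunit that goes to the vacuole, passed none of the tests of the main model, which has no block for culture. It ranged between 0.01 and 0.32 in culture a and between 0.15 and 0.46 in culture b, with the highest value of each culture at 0 min. Its log2 fold change against 0 min was -0.31 (SE 0.10, adjusted p = 0.0138) at 3 min, -0.06 at 30 min and -0.30 (adjusted p = 0.0151) at 300 min. With culture as a block the 3 and 300 min values had adjusted p = 9.92e-05 and 0.000116, still under the fold limit. With 1 loess curve per array the 300 min value was -0.38 (adjusted p = 0.00103). With the arrays shifted to external control probes SIP1 was higher, 0.52 at 30 min (adjusted p = 0.00141) and 0.50 at 300 min (adjusted p = 0.00169). These 3 values were also under the fold limit. With loess SIP1 was higher in culture b at 8 of 8 later times, by 0.12 on average (SD 0.05).

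**Figure D2:**
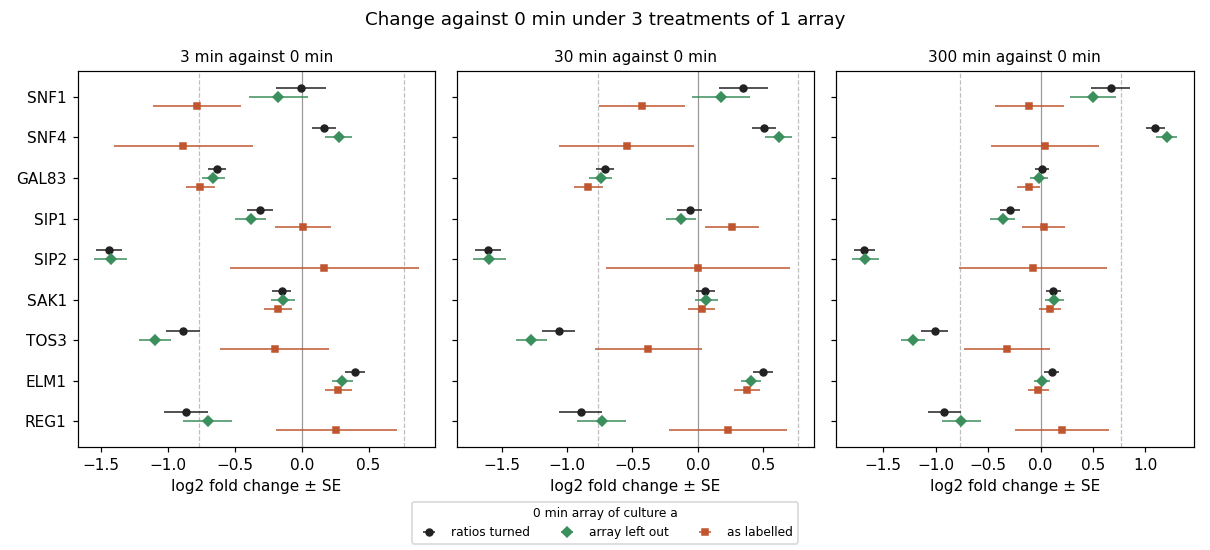
Log2 fold change ± SE of each gene at 3, 30 and 300 min against 0 min. Colours show the array of culture a at 0 min turned (black), left out (green) or as labelled (orange). Dashed lines mark the fold limit of 1.7. Black and green values of SIP2 lie between -1.68 and -1.43, and the orange ones between -0.08 and 0.17 with wide errors.

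SAK1, the main Snf1-activating kinase, stayed within a narrow band. Its log2 ratios from 0 to 300 min were -0.03, -0.22, -0.05, -0.11, 0.03, 0.11, 0.11, 0.10 and 0.15 in culture a. In culture b they were -0.05, -0.15, -0.23, -0.08, 0.01, 0.15, 0.04, 0.16 and 0.02. Both cultures were below the pool up to 15 min and above it from 30 min on. Against 0 min the log2 fold changes were -0.15, 0.06 and 0.12 (SE 0.07) at 3, 30 and 300 min, and none passed. SAK1 passed the F tests over 9 times (adjusted p = 0.00721) and over 8 times (0.00901), and 300 min against 3 min was 0.27 (SE 0.07, adjusted p = 0.00584), a 1.21-fold difference.

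TOS3, another of the upstream kinases, fell by 3 min with loess. Shifted to external control probes it was at -0.47, -0.48 and -0.22 at 3, 30 and 300 min against 0 min, and was not called. Its log2 ratios from 0 to 300 min were 0.69, -0.04, -0.20, -0.28, -0.24, 0.06, 0.06, 0.01 and -0.20 in culture a. In culture b they were 1.10, 0.05, -0.24, -0.17, -0.10, 0.11, 0.20, 0.24 and -0.03. At 0 min both cultures lay above all later arrays, and the 6 arrays from 60 to 150 min lay above the 6 from 7.5 to 30 min, though the F test from 3 min on did not pass (adjusted p = 0.0147, or 0.000362 with culture as a block). Relative to 0 min, TOS3 had a log2 fold change of -0.89 (SE 0.13, adjusted p = 9.34e-05) at 3 min, -1.07 (adjusted p = 1.41e-05) at 30 min and -1.01 (adjusted p = 2.01e-05) at 300 min. With the array left out it was -1.10, -1.27 and -1.22, all called, and as labelled -0.20, -0.38 and -0.32, none called. With culture b at 0 min left out, the 3 min value was -0.68 (adjusted p = 0.000515), under the fold limit. Of the 9 genes TOS3 had the dimmest spots, down to 2.90 times the local background, though all its 36 spots were above background in both channels.

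ELM1, a kinase that also acts in bud growth and in the mitotic exit checkpoint, ran opposite to GAL83 with loess. The log2 ratios from 0 to 300 min were -0.13, 0.38, 0.36, 0.51, 0.49, 0.06, 0.0012, 0.07 and 0.05 in culture a. In culture b they were 0.06, 0.35, 0.38, 0.50, 0.45, 0.18, -0.06, 0.19 and 0.10. All 8 arrays from 3 to 30 min lay above all others. Set against 0 min, ELM1 had a log2 fold change of 0.40 (SE 0.07, adjusted p = 0.000571) at 3 min, 0.50 (adjusted p = 7.35e-05) at 30 min and 0.11 (adjusted p = 0.214) at 300 min. The 30 min difference was 1.41-fold, under the limit, and was 0.40 (adjusted p = 0.000847) with the array left out and 0.37 (adjusted p = 0.0363) as labelled. At 300 min against 30 min ELM1 was at -0.39 (SE 0.07, adjusted p = 0.000876). Across the 16 arrays from 3 min on, ELM1 and GAL83 correlated at r = -0.89, as a description over arrays that share 8 times and 2 cultures. With the arrays shifted to external control probes, ELM1 was at 0.82, 1.08 and 0.90 at 3, 30 and 300 min against 0 min. GAL83 was at -0.21, -0.13 and 0.81 on that scale. Their signs still differed at 3 and 30 min, but GAL83 did not pass there (adjusted p = 0.179 and 0.389). Both were higher at 300 min, so how far the courses opposed each other depended on the scaling.

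REG1, the Glc7 subunit that turns Snf1 off, fell by 3 min with loess, just past the fold limit. Shifted to external control probes it was at -0.45, -0.31 and -0.12 at 3, 30 and 300 min against 0 min, and was not called. From 0 to 300 min culture a had log2 ratios of 1.12, 0.16, 0.01, 0.13, 0.13, 0.02, 0.08, 0.27 and 0.14. Culture b had 0.80, 0.03, -0.11, -0.18, 0.0013, -0.12, -0.06, -0.18 and -0.05. Both cultures were highest at 0 min, and by 3 min 94.3% of the change had been reached. For REG1 the log2 fold change against 0 min was -0.86 (SE 0.16, adjusted p = 0.000641) at 3 min, -0.90 at 30 min and -0.92 at 300 min, 1.82-fold to 1.89-fold lower. With the array left out it was -0.70, -0.74 and -0.76, under the fold limit. That fit set culture b at 0 min against later means of both cultures. Within culture b alone the change was -0.77, -0.80 and -0.85, just past the fold limit and not tested. As labelled the log2 fold change was 0.26, 0.23 and 0.21. From 3 min on culture a was higher at 8 of 8 times, by 0.21 on average, while the time means spanned 0.15.

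**Figure D3:**
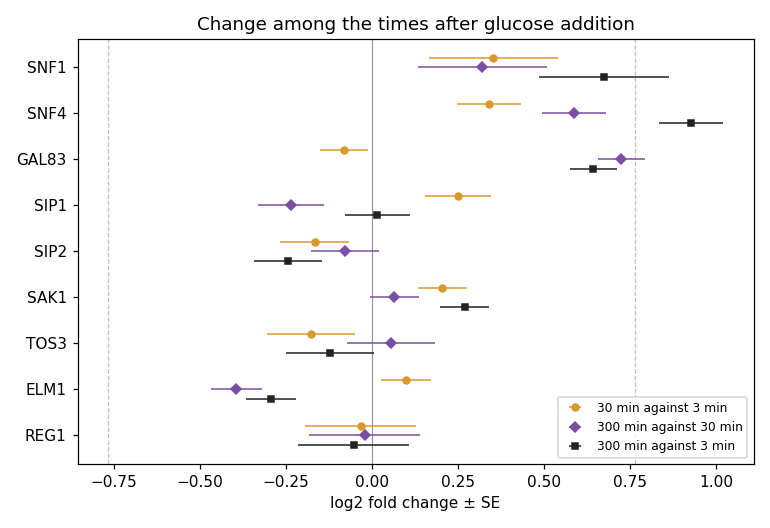
Log2 fold change ± SE of each gene between the times after glucose addition, none of which use a 0 min array for the difference itself. Dashed lines mark the fold limit of 1.7. SNF4 passes it at 300 min against 3 min with 0.93, and GAL83 reaches 0.73 at 300 min against 30 min.

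Between the times after 0 min, 1 gene of the 9 passed both limits. At 30 min against 3 min 0 of the 9 were called in limma, beside 9.63% of all genes, with 3 at an unadjusted p under 0.05. By the adjusted p alone 0 passed, beside 27.4%, and with culture as a replicate block 3 did (SNF1, 0.00425, SNF4, 0.00028, and SIP1, 0.000869), beside 46.2%. At 300 min against 30 min 0 were called, beside 15.2%, with 4 at an unadjusted p under 0.05, and 3 (SNF4, GAL83 and ELM1) passed the adjusted p alone, beside 38.4%, to which the block added SNF1 and SIP1, 5 of the 9 beside 55.5%. At 300 min against 3 min 1 gene rose and 5 passed the adjusted p alone, beside 52.8% of all genes. The 5 were SNF1 (0.67), SNF4, GAL83 (0.64), SAK1 and ELM1 (-0.29), and with the block SIP2 made 6, beside 67.5%. The median absolute log2 fold change in this comparison was 0.27 for the 9 genes and 0.47 for all genes.

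The scaling of the arrays bears on the direction of the smaller values. Loess sets the average gene to 0 on every array, whereas 6 bright external control probes stood at 0.74 and 1.13 at 0 min and at 0.14 and 0.14 at 300 min, in cultures a and b. Shifting each array to these probes moved the median of all genes by 0.42, 0.58 and 0.79 at 3, 30 and 300 min against 0 min. All genes then split into 1481 higher and 316 lower at 3 min, against 644 and 705 with loess, into 2071 and 528 at 30 min, against 918 and 1031, and into 2738 and 457 at 300 min, against 1018 and 1015. On that scale SIP2 was still called lower, with -1.02, -1.02 and -0.89. The shares of a change reached by 3 min that are given above are those with loess, and on the control scale that of SNF4 was 31.1%. TOS3 (-0.47, -0.48 and -0.22) and REG1 (-0.45, -0.31 and -0.12) were no longer called. SNF4 was called higher at 30 and 300 min (1.09 and 1.89), ELM1 at 3, 30 and 300 min (0.82, 1.08 and 0.90) SNF1 at 30 and 300 min (0.93 and 1.46), and GAL83 and SAK1 at 300 min (0.81 and 0.92).

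For the genes past the F test over 9 times, the genes with the most similar course over the 18 arrays were sought by Pearson's r among 4046 others that passed. SNF4 was most like TOM71 (r = 0.99), a mitochondrial import receptor, and ERG27 (r = 0.98), an enzyme of ergosterol synthesis. GAL83 was most like CPR4 (r = 0.98), a cyclophilin, and ARC15 (r = 0.97), a subunit of the actin-nucleating Arp2/3 complex. SIP2 was most like RCN2 and FBP26, a gene for fructose-2,6-bisphosphatase (r = 0.99 each), and REG1 was most like RSM23 (r = 0.98), a protein of the mitochondrial ribosome, and IXR1 (r = 0.97). TOS3 was most like UBC7, an enzyme of endoplasmic reticulum protein degradation, and CMR3 (r = 0.96 each). ELM1 was most like JJJ3 and PXR1 (r = 0.96 each), and SAK1 was most like MTC1 and HEM13 (r = 0.92 each), HEM13 being an enzyme of haem synthesis. Over the 16 arrays from 3 min on these coefficients were 0.98 and 0.99 for the partners of SNF4 and 0.98 for both of GAL83, but 0.87 and 0.81 for those of SIP2, 0.85 and 0.81 for those of REG1 and 0.81 and 0.78 for those of TOS3. The coefficients describe arrays that share the same cultures and the same pool, and for SIP2, REG1 and TOS3 the 0 min arrays lie far from the rest.

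The wider pathway was described by 3 lists of genes. At 30 min 17.4% of all genes were called higher and 19.6% lower. Of 7 other regulators, 1 rose and 1 fell at 30 min, near those shares, and the median log2 fold change was -0.01, the same as over all genes. REG2, a second Glc7 subunit related to REG1, was at 0.51 and 0.37 in cultures a and b at 30 min, against 3.38 and 3.78 at 0 min, a log2 fold change of -3.14 (SE 0.12, adjusted p = 1.27e-09). STD1, which acts in glucose sensing and binds Snf1, was at 0.25 and 0.44 at 30 min, against -0.72 and -0.34 at 0 min, with 0.88 (SE 0.14, adjusted p = 0.000116), or 0.69 with the array left out, under the fold limit. With loess and the array turned, REG2 and REG1 both fell, REG2 in steps up to 30 min and REG1 within the first 3 min. With the array left out REG2 was at -3.34 at 30 min against 0 min. REG1 was then under the fold limit, though at -0.80 within culture b alone. REG1 was also not called on the external control scale.

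Of 16 transcription factors of the pathway, 1 rose and 7 fell at 30 min, with a median of -0.54 against -0.01 over all genes. CAT8 (-3.17), SIP4 (-2.78) and ADR1 (-2.49), activators of genes for growth without glucose, and NRG1 (-2.11), a repressor, fell the most. The factor that rose was TUP1 (1.35), a corepressor, named after its value was seen. Of 12 glucose-repressed genes that need Snf1, 1 rose and 9 fell at 30 min, with a median of -2.94. CAT2, a carnitine acetyltransferase, was at -4.11, ICL1 and MLS1 of the glyoxylate cycle at -3.47 and -3.44, and FBP1 of gluconeogenesis at -3.31. ADH2, an alcohol dehydrogenase that is also listed as glucose-repressed, was higher at 30 min by 2.17 (adjusted p = 6.12e-06). It was named after its value was seen, and its sequence is near that of ADH1, which its probe may also bind, so the value is uncertain. At 300 min against 0 min 2 of the 12 rose and 9 fell, beside 19.3% and 19.2% of all genes. SUC2, also named after its value was seen, was 1 that rose (0.81, adjusted p = 0.000832 in limma). With the array left out it was at 0.75, under the fold limit. At 300 min against 3 min SUC2 was at 1.69, called with the array turned and as labelled. As labelled, 0 genes of each list were called at 30 min in limma (2, 0 and 1 at an unadjusted p under 0.05), and the medians were 0.01, 0.13 and 0.40.

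**Figure D4:**
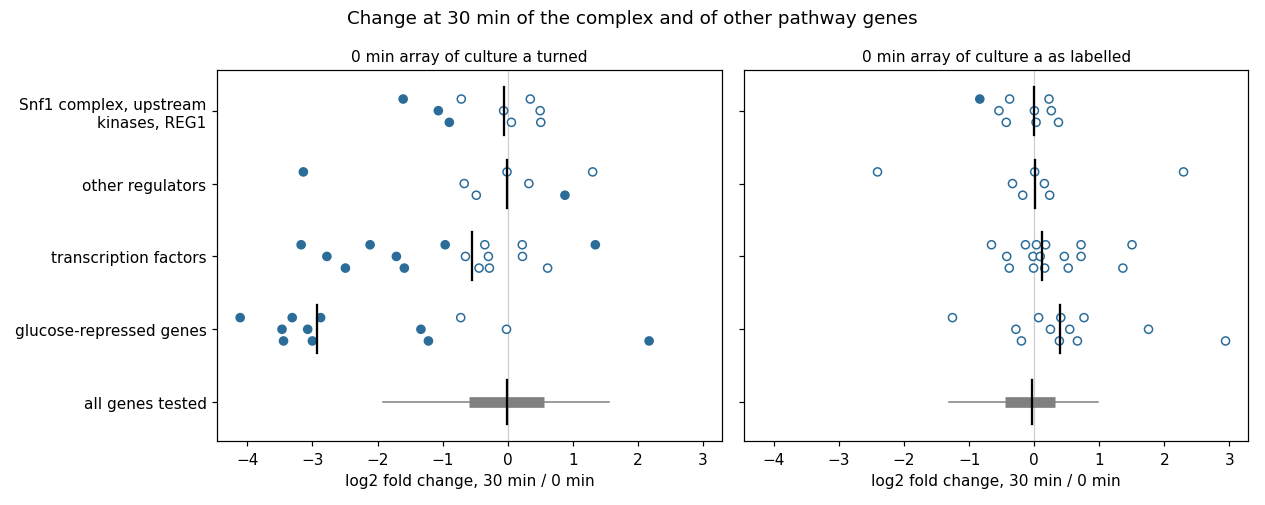
Log2 fold change at 30 min against 0 min of each gene of 4 groups, the array of culture a at 0 min being turned (left) or as labelled (right). Filled points passed both limits, black bars are medians, and for all genes tested the thick line spans the 25th to 75th percentile and the thin line the 5th to 95th. The glucose-repressed genes centre on -2.94 at left and 0.40 at right, while the Snf1 genes centre near 0 in both.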

How the data were processed

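The authors scanned 18 two-colour arrays, quantified them as mean spot intensity in ImaGene without background subtraction, and deposited intensity files and a table of print-tip loess log2 ratios. limma 2.12.0 is listed in the processing notes of the submitters. No sequences or coordinates were used. Here the deposited intensities were normalised again by print-tip loess (span 0.4, control and saturated spots out of the curve), using limma 3.58.1 under R 4.3.3. They matched the authors' deposited log2 ratios at r = 0.9997 or more on each array, and differed by at most 0.032 for the 9 genes. Of 6388 gene probes 5326 carry a name, and 19 mitochondrial and 21 transposable element probes were left out. One limma model with a coefficient for each time (lmFit, eBayes, 9 residual degrees of freedom) was fitted over 18 arrays. It was tested on simulated data. The thresholds and the comparison with 0 min follow the study's methods. The differences between cultures correlated across genes between all pairs of times (0.26 to 0.90, with the array turned). As culture and dye cannot be told apart, this does not show that the letters pair the arrays. Culture as a replicate block, which then also holds the dye, was an alternative. Other alternatives were the scaling, the background correction, the deposited table, a filter on dim probes, the thresholds, the samples in the model and leaving out each array. The members, the gene lists and the array turned were chosen with earlier results of these data known. The text names all 9 members, up to 4 genes per list with the largest change past the limits at 30 min, and the 2 genes most like each member. The 6 external control probes were chosen after their values were seen. Promoter motifs were not searched here. Binding of related transcripts to a probe was not tested.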

Additional observations from a re-analysis of the deposited data

Results flagged for a closer look

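For 5 genes a difference between later times passed the adjusted p limit, shares close to those of all genes (3 of 9 beside 38.4% for 300 against 30 min, and 5 of 9 beside 52.8% for 300 against 3 min). The change at 300 min differed from that at 30 min, in limma with both set against 0 min, by 0.59 for SNF4 (adjusted p = 0.000257), by 0.73 for GAL83 (adjusted p = 6.76e-06) and by -0.39 for ELM1 (adjusted p = 0.000876). It differed from that at 3 min by 0.67 for SNF1 (adjusted p = 0.00789), 0.93 for SNF4 (adjusted p = 3.64e-06), 0.64 for GAL83 (adjusted p = 7.04e-06), 0.27 for SAK1 (adjusted p = 0.00584) and -0.29 for ELM1 (adjusted p = 0.00415).

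In 3 of 54 pairs of log2 fold changes the cultures moved in opposite directions, a difference that was not tested. SNF1 at 3 min against 0 min was 0.13 in culture a and -0.14 in culture b, GAL83 at 300 min against 0 min was -0.028 in culture a and 0.053 in culture b, and REG1 at 300 min against 30 min was 0.016 in culture a and -0.056 in culture b.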

How the results depend on the processing

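Of 837 log2 fold changes of the 9 genes under other settings, 715 kept their sign and call and 46 changed sign only. The call was lost in 28, 5 of them with a change of sign, and gained in 48. Of the 48, 13 and 18 came from dropping the fold limit at an adjusted p of 0.01 and 0.05. These 2 settings recompute no value and cannot change a sign. The settings overlap and are not independent. The deposited table, normexp and the filter on dim probes changed no call of a member. Culture as a replicate block changed no call by both limits, but 8 of 9 genes then passed the F test from 3 min on and 9 of 9 that over the 9 times, and more passed the adjusted p alone, as given with each count. As labelled, 0, 1 and 0 members were called at 3, 30 and 300 min against 0 min, beside 4.38%, 3.7% and 0% of all genes. At 300 min against 3 min 0 were, beside 86 genes higher and 73 lower of 5273, and 1 varied over the 9 times. The signs then turned for SNF4 (-0.88), SIP1 (0.012), SIP2 (0.17) and REG1 (0.26) at 3 min, for SNF1 (-0.43), SNF4 (-0.54), SIP1 (0.26), SIP2 (0.0021) and REG1 (0.23) at 30 min, and for SNF1 (-0.11), GAL83 (-0.11), SIP1 (0.028), REG1 (0.21) and ELM1 (-0.021) at 300 min. Left out in all fits, the array turned GAL83 at 300 min to -0.018. With 1 loess curve per array SAK1 at 3 min (0.040) and ELM1 at 300 min (-0.0097) against 0 min changed sign, as did GAL83 (0.040) and ELM1 (-0.0020) at 30 min against 3 min, SAK1 at 300 min against 30 min (-0.19) and SIP1 at 300 min against 3 min (-0.14). None of these 6 values was called. On the external control scale, SNF1 (0.41), SIP1 (0.11) and SAK1 (0.27) at 3 min and SIP1 at 30 and 300 min (0.52 and 0.50) against 0 min turned positive. So did GAL83 (0.082) and REG1 (0.13) at 30 min against 3 min, SIP2 (0.13) and REG1 (0.19) at 300 min against 30 min, and SIP2 (0.13), REG1 (0.32), TOS3 (0.25) and ELM1 (0.080) at 300 min against 3 min. That scale called 2 members at 300 min against 30 min, beside 753 genes higher and 200 lower of 5273. It called 3 at 300 min against 3 min, beside 1414 higher and 406 lower. At an adjusted p under 0.05 with no fold limit, 6, 6 and 2 members passed at 3 min against 0 min, at 30 min against 0 min and at 30 min against 3 min, 3 at 300 min against 30 min and 6 at 300 min against 3 min. At 300 min against 0 min the limit of 0.05 added SIP1 (adjusted p = 0.0151 in limma). At 0.01 with no fold limit it was 5 and 6 at 3 and 30 min against 0 min, beside 50.3% and 60.9% of all genes. It was 3 at 300 min against 30 min and 5 at 300 min against 3 min, beside 38.4% and 52.8%. With only the 2 times compared in the model 1 was called at 3 min and 2 at 300 min against 0 min, with fewer arrays to estimate the spread. No share of all genes was set beside the counts at 0.05, adjusted or unadjusted, over the 9 times as labelled, with only 2 times or without 1 array. These counts describe the members only.

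Leaving out 1 array at a time gave 0 to 1 called members at 300 min against 30 min and 1 to 2 at 300 min against 3 min, the higher number without the array of culture a at 300 min, which added GAL83 in the first comparison and SNF1 in the second. The log2 fold change then ran between -0.18 and 0.16 for SNF1 at 3 min, between -0.13 and 0.0044 for SIP1 at 30 min and between -0.059 and 0.084 for GAL83 at 300 min, each against 0 min. It ran between -0.096 and 0.032 for REG1 at 30 min against 3 min. At 300 min against 30 min it ran between -0.12 and 0.079 for REG1, -0.028 and 0.14 for TOS3 and -0.21 and 0.051 for SIP2, and at 300 min against 3 min between -0.057 and 0.091 for SIP1 and -0.15 and 0.047 for REG1. Where a time is left with 1 array, that array is assumed to vary like the others. The disagreement between the label and the values of 1 array and the 2 arrays per time limit these results. The cause of the other shifts was not tested.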

Other observations

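With loess centring and the 0 min array turned, SIP2, REG1 and TOS3 had reached 85.5%, 94.3% and 88.0% of their change at 300 min by 3 min, whereas SNF4 had reached 15.3%. These shares depended on the scaling. Shifted to the external control probes, SNF4 had reached 31.1% by 3 min and SIP2 was at -1.02 at 3 min and -0.89 at 300 min, while REG1 (-0.45 and -0.12) and TOS3 (-0.47 and -0.22) were not called. REG1 was also not called with the 0 min array of culture a left out, though within culture b alone it was at -0.77 and -0.85. From 3 min on 4 genes of the group passed the F test without culture as a block, and 8 of 9 with it. Among the 4, SNF4 correlated with GAL83 at 0.87, with SAK1 at 0.84 and with ELM1 at -0.88. SNF1, which passed with the block only (adjusted p = 0.000156), correlated with GAL83 at 0.80. These values are with loess over the 16 later arrays, as a description over arrays of 2 cultures. Between the cultures, SNF1, SIP1 and REG1 kept 1 order at 8 of 8 later times, and SNF4 was higher in culture a at all 8, by 0.10 on average (SD 0.06).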
